A study of Mus musculus with 6 samples.

Results

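The genes described here are 32 mouse genes of endoplasmic reticulum (ER) protein folding, the unfolded protein response and the integrated stress response, out of 41388 Ensembl genes in the deposited tables. They were taken by a list of symbols and grouped by branch: 8 genes of the ATF4 or integrated stress branch, 14 of the ATF6 or chaperone branch and 10 of the XBP1 or degradation branch. All 32 IDs carried the same symbol and a protein-coding class in GENCODE M21. RNA was sequenced from macrophages sorted out of the intima, the inner layer of the aorta, of ApoE -/- mice on C57BL/6, a model that forms plaques. The series design gives 6 mice and 28 weeks of Western diet, and neither the mice's age nor their division among libraries is given in the sources used here. Both groups carry the same ApoE -/- genotype and had the same diet, so no lean or wild-type macrophage was compared. Foamy macrophages were sorted as live CD64+CD11b+ cells with high BODIPY493/503, a dye that stains neutral lipid, and with high side scatter, and non-foamy macrophages as CD64+CD11b+ cells low in both, with 3 libraries of each. Before sorting, the tissue was digested at 37 °C, for 8 min to strip the adventitia and then for 70 min.

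Proteins that are secreted or sit in membranes fold in the ER, helped by chaperones such as BiP and by disulfide isomerases. When unfolded proteins build up, 3 sensors in the ER membrane respond: PERK, which phosphorylates eIF2alpha and lets ATF4 be translated; ATF6, which is cut and enters the nucleus; and IRE1, which splices the Xbp1 mRNA. The ATF4 arm is also reached from other eIF2alpha kinases and is then called the integrated stress response. In plaque macrophages loaded with cholesterol this system is much studied, because free cholesterol in the ER membrane can trigger it and because its factor CHOP promotes cell death.

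The regulatory sequences through which these branches act are shown first, since they set out which members have a response element in common. RefSeq promoter windows of 250 bases before to 50 bases after the start (GRCm38.p6) were at hand for 28 members. Manf, Hyou1, Atf6 and Derl1 had none. The ER stress element, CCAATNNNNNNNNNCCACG searched on both strands, is bound by ATF6 together with NF-Y. It was found in 8 of the 28 windows (28.6%) and in 0.119% of the 32851 windows of the table. The 9 sites are listed with the fixed letters in capitals and the 9 spacer bases in lower case, each read on the strand that matches the motif, and their first bases lay from -212 to -44 of the start.
Hspa5, chr2:34772025-34772043, gene strand: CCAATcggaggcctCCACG
Calr, chr8:84847075-84847093, opposite strand: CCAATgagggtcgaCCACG
Hsp90b1, chr10:86705638-86705656, gene strand: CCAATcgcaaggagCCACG
Hsp90b1, chr10:86705533-86705551, opposite strand: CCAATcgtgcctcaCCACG
Canx, chr11:50325800-50325818, gene strand: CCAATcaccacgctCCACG
Pdia6, chr12:17266491-17266509, gene strand: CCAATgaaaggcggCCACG
Dnajc3, chr14:118937827-118937845, gene strand: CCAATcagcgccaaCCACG
Creld2, chr15:88819520-88819538, opposite strand: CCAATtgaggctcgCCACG
Syvn1, chr19:6046532-6046550, gene strand: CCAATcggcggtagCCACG

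The shorter form ERSE-II, ATTGGNCCACG, stood in the windows of Herpud1 and Dnajb11 (7.14% of member windows, 0.0365% of all). TGATGNAA, a core shared by C/EBP-ATF elements to which ATF4 binds, stood in those of Chac1, Trib3, Asns and Herpud1 (14.3% against 3.97%). The cyclic AMP response element TGACGTCA stood in that of Ppp1r15a alone (3.57% against 1.79%). The XBP1-preferred core TGACGTGG was found in 0 of 28 windows, against 0.676% of all windows. All motifs were searched on both strands and none contains another, though ERSE and ERSE-II are made of the same pair of blocks, 1 of them turned around and closer. In all, 14 windows held at least 1 of the 5 motifs and 14 held none. A match is a string of letters and no evidence of binding here, and its absence from a window of 300 bases says only that.

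**Figure D1:**
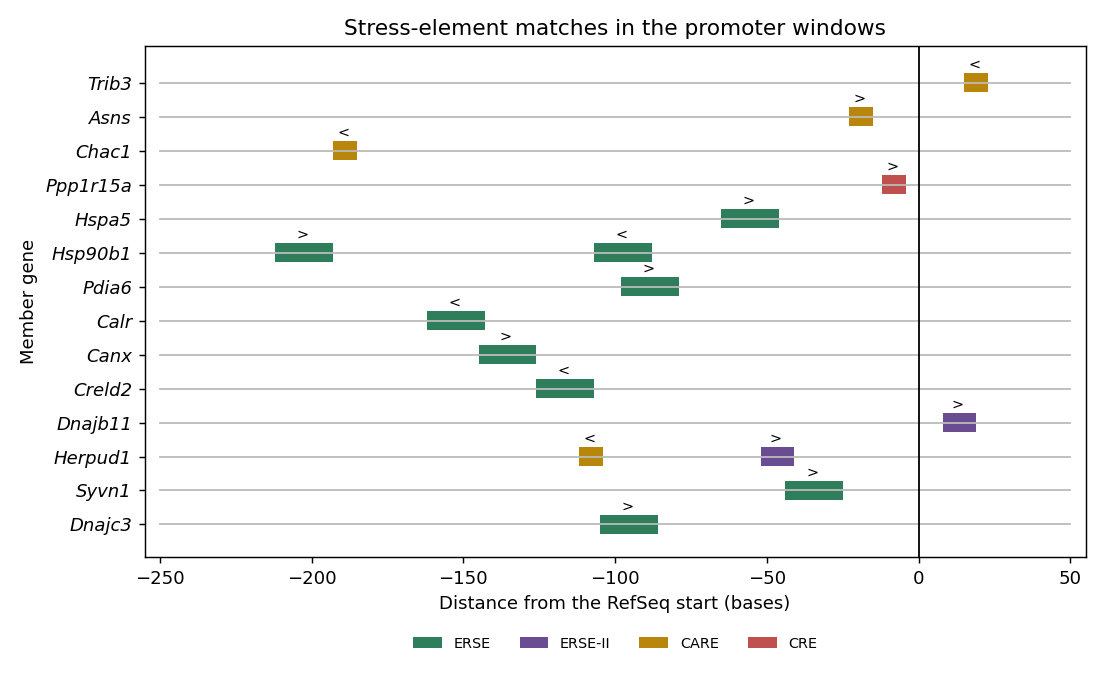
Positions of the matched motifs, in bases from the RefSeq start (vertical line), in the 14 member promoters with a match, with arrows for the strand relative to the gene. ERSE matches lie between -212 and -26 in 8 promoters, and Herpud1 carries both an ERSE-II and a C/EBP-ATF core.

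The 250 bases before the start are given for the 3 members that passed the test below, with the matched motif in capitals, written 5′ to 3′ on the gene's strand. In the Calr sequence the capitals are the opposite strand's ERSE, and in Herpud1 the first capitals are the opposite strand's C/EBP-ATF core and the second the ERSE-II.
Ppp1r15a, chr7:45526269-45526518, minus strand: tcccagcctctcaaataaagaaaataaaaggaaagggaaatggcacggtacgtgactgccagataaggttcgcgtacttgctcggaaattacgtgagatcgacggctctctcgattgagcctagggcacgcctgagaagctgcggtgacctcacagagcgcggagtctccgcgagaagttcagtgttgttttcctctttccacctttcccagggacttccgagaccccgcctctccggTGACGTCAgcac
Calr, chr8:84846932-84847181, minus strand: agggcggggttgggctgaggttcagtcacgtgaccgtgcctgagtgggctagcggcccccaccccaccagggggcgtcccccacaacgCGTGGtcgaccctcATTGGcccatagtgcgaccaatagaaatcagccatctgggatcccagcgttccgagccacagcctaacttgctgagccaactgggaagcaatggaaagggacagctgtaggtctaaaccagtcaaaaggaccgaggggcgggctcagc
Herpud1, chr8:94386179-94386428, plus strand: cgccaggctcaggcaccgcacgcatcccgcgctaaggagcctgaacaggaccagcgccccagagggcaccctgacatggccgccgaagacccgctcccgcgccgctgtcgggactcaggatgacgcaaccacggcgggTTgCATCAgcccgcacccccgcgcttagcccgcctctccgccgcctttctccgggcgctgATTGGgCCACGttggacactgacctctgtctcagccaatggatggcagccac

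Of the 32 genes, 3 passed the test in the comparison of foamy with non-foamy macrophages. Herpud1, a membrane protein of the degradation machinery, and Ppp1r15a, the stress-induced subunit of the eIF2alpha phosphatase, were lower in foamy libraries. Calr, the calcium-binding lectin chaperone calreticulin, was higher. The 3 stress sensors, the factors Atf4, Ddit3 and Xbp1 and the central chaperone Hspa5 did not pass. Of the 31 members tested, 1 was higher and 2 were lower at an adjusted p under 0.05 (edgeR quasi-likelihood test, Benjamini-Hochberg over all genes tested). Over all 11303 genes tested, 5.41% were called, 2.50% higher and 2.90% lower. The median log2 difference of foamy from non-foamy was 0.13 over the members tested and -0.04 over all genes. Within 0.5 of 0 lay 22 of 31 members and 6035 of the 11303 genes. The median standard error (SE) was 0.28 for the members and 0.45 for all genes, and its part in these counts was not tested. DESeq2 called 5 of 32 members, adding Sesn2 and Chac1 as higher, where it called 10.3% of all genes.

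Levels are given as CPM, counts scaled to library size with TMM factors, replicates 1 to 3 in order. The 3 foamy values lay all above or all below the 3 non-foamy values in 12 of the 31 members, 8 higher and 4 lower. Such a gap between the groups was seen in 25.7% of all tested genes, with 12.4% higher and 13.3% lower. Of the 8 higher members, Eif2ak3, P4hb, Canx, Dnajb11 and Dnajc3 overlapped when scaled to total counts alone, as in the deposited RPKM. The 4 lower members stayed apart. Gaps over all genes were counted with TMM factors only. Scaling to total counts alone moved the median of all genes to -0.31 and that of the members to -0.16, so that the members stood 0.18 above all genes with TMM and 0.15 above with total counts.

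Depth was 15628627 to 24619075 counts in genes per library, and 15595 to 24701 genes had at least 1 count, the most in non-foamy replicate 1. Apoe read 2.60 to 7.02 CPM in all 6 libraries, which are all of the knockout. Of the gate genes, Fcgr1 (CD64) overlapped between the groups, at 184 to 273 CPM in foamy against 129 to 235 CPM in non-foamy libraries. Itgam (CD11b) was called lower in foamy libraries, at 70.3 to 85.9 against 127 to 151 CPM (edgeR adjusted p = 0.023). Of the other 6 macrophage markers, Cd68, Lyz2 and Mertk were called higher and Adgre1, Csf1r and Cd14 lower in foamy libraries. Monocyte markers were lower in foamy libraries for 6 of 7 tested, with summed levels of 134 to 196 CPM against 618 to 887 CPM. The 7 dendritic cell markers summed to 0.38 to 16.1 CPM in foamy against 33.1 to 253 CPM in non-foamy libraries. Only Cd209a was tested of them, and it was apart without passing (0.19 to 14.5 against 32.2 to 249 CPM, edgeR adjusted p = 0.28). It made most of the sum in every non-foamy library and in foamy replicate 2. Clec9a went the other way, with counts only in foamy replicates 2 and 3. Immediate early genes, inducible by tissue digestion, were lower for 12 of 15, at a summed 2591 to 3076 CPM against 6071 to 8564 CPM. Fibroblast markers summed to 2.73 to 167 CPM in the foamy libraries and 8.15 to 305 CPM in the non-foamy ones, with the high values in foamy replicate 3 and non-foamy replicates 1 and 3. The part of these in the results below was not tested, and in such bulk samples fewer cells of a type and less RNA per cell cannot be told apart.

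**Figure D2:**
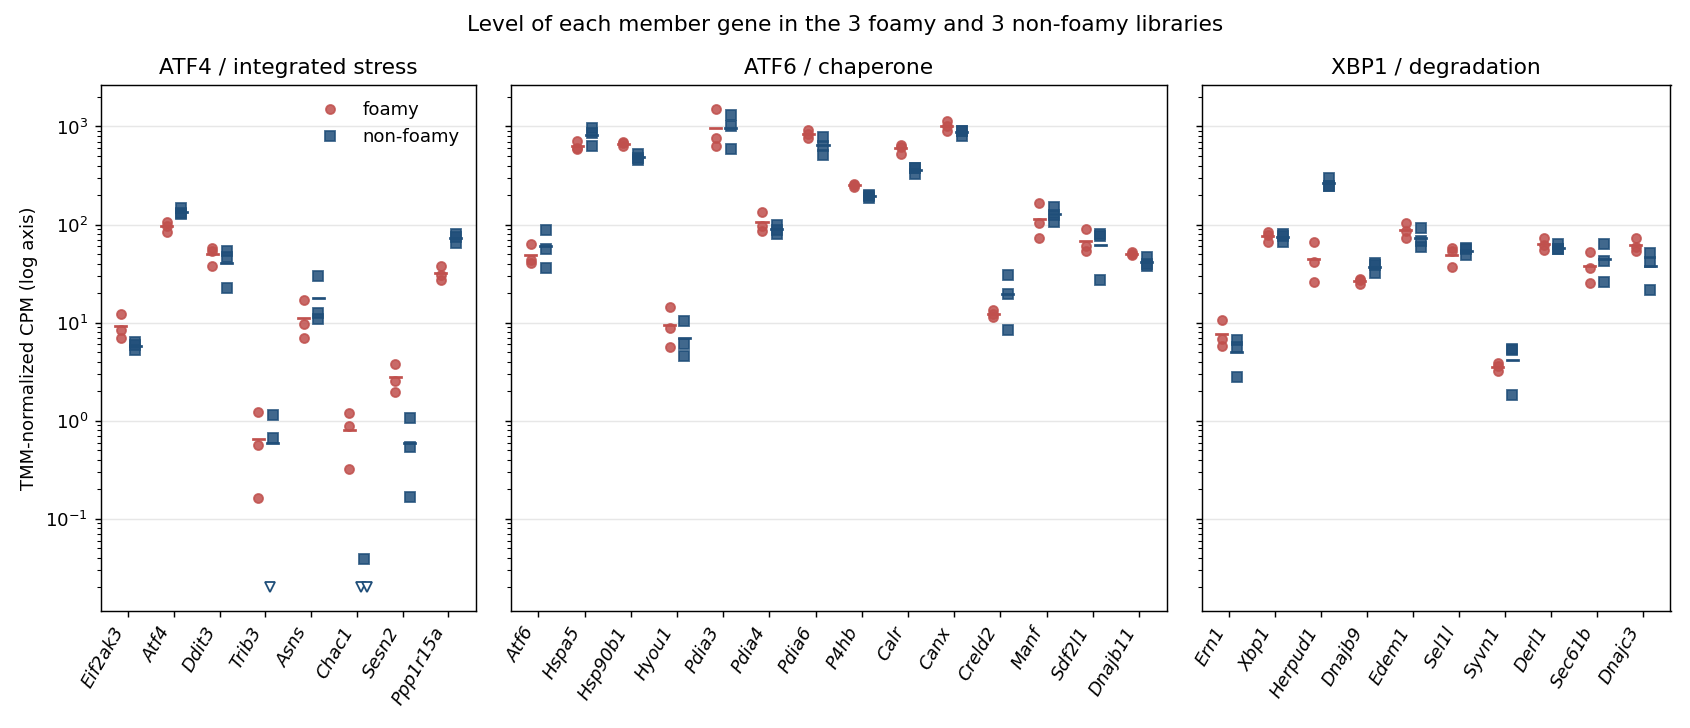
TMM-normalized CPM (log axis) of each member in the 3 foamy (red circles) and 3 non-foamy (blue squares) libraries, by branch, with bars for the group mean and open triangles for libraries listed at 0. Levels run up to 1512.7 CPM for Pdia3, and Herpud1, Ppp1r15a and Calr have groups that do not overlap.

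To compare genes with each other, the deposited RPKM, reads scaled to transcript length and library total, was averaged over the 6 libraries. The disulfide isomerase gene Pdia3 was the most abundant member at 306 RPKM, at the 98.3 percentile of tested genes. Hspa5 at 211, Canx at 201, Pdia6 at 196, Calr at 163 and Hsp90b1 at 142 RPKM followed. The first 3 of these did not differ beyond their spread in non-foamy libraries, at 259 ± 72.0, 204 ± 24.8 and 189 ± 41.7 RPKM (SD, n = 3). Among the sensors Atf6 stood at 6.07 RPKM, Eif2ak3 at 1.37 and Ern1 at 0.765, so the sensors were far less abundant than these chaperones. The factors Atf4 at 68.1, Ddit3 at 26.2 and Xbp1 at 23.3 RPKM lay between, and Sesn2 at 0.454, Trib3 at 0.304 and Chac1 at 0.226 RPKM were the lowest.

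In the ATF4 branch, of 7 tested members 0 were higher and 1, Ppp1r15a, was lower (14.3%, against 5.41% called of all genes). The median log2 fold change was 0.13 (-0.16 with total counts only, and -0.51 over the 5 members that passed the stricter filter). The sign of this median changed when single libraries were left out. It was -0.41 over 7 members without foamy replicate 2. Over 8 members it was -0.0040 without non-foamy replicate 3 and 0.52 without foamy replicate 3. Chac1 passed the filter in the fits with 8 members, so the set of genes changed there as well as the libraries. Eif2ak3 encodes PERK, the sensor of this branch. It read 7.02, 12.3 and 8.41 CPM in the foamy libraries and 5.25, 6.33 and 5.90 CPM in the non-foamy ones. Every foamy value lay above every non-foamy value, foamy replicate 2 being highest, but the difference did not pass (log2 fold change 0.66 with SE 0.45, edgeR adjusted p = 0.50). The gap rests on the TMM factors. In RPKM, scaled to total counts, Eif2ak3 was at 1.12, 2.18 and 1.39 in foamy and 1.14, 1.26 and 1.12 in non-foamy libraries, with overlap.

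Atf4 encodes the transcription factor that is translated when eIF2alpha is phosphorylated, a step that mRNA counts do not read. Its level was 96.9, 106 and 84.996 CPM in the foamy libraries and 128, 129.8 and 147 CPM in the non-foamy ones. The foamy values were all lower, and the groups did not overlap. The log2 fold change was -0.49 (SE 0.19, edgeR adjusted p = 0.18). With total counts as the only scaling it passed, at -0.75 with an adjusted p of 0.040.

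Ddit3 encodes CHOP, a target of ATF4 tied to cell death under lasting stress. It read 53.7, 57.6 and 38.0 CPM in the foamy libraries and 22.5, 53.3 and 47.2 CPM in the non-foamy ones. The groups overlapped, with non-foamy replicate 1 far below the rest. The log2 fold change of 0.28 (SE 0.33, edgeR adjusted p = 0.74) became -0.014 without that library. Ddit3 shares 68 exon bases with Mars on the opposite strand, and the strand setting of the counting is not given in the sources used here.

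Ppp1r15a encodes GADD34, which brings protein phosphatase 1 to eIF2alpha and so ends the block on translation. The gene (ENSMUSG00000040435) lies on chromosome 7 from 45522916 to 45526268 on GRCm38, and counts cover its exons together. Its level was 37.8, 30.8 and 27.5 CPM in the foamy libraries and 65.6, 74.2 and 80.2 CPM in the non-foamy ones. All foamy values lay below all non-foamy values. The mean fell from 73.3 ± 7.35 in non-foamy to 32.01 ± 5.25 CPM in foamy libraries (SD, n = 3), 2.29-fold (log2 fold change -1.20 with SE 0.23, edgeR adjusted p = 0.012). The call was lost without foamy replicate 2 (-1.16, adjusted p = 0.067) or foamy replicate 3 (-1.09, adjusted p = 0.076). Its constitutive counterpart Ppp1r15b, which does the same task without stress, did not pass (log2 fold change 0.29 with SE 0.33, edgeR adjusted p = 0.73). In RPKM, Ppp1r15a was 432, 164 and 171% of Ppp1r15b in foamy and 630.2, 622 and 599.96% in non-foamy libraries, a ratio within each library that no scaling factor moves. It was below every non-foamy ratio in all 3 foamy libraries. The lower level went with lower immediate early genes (12 of 15 called), monocyte markers and Cd209a as given above, whose part was not tested.

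Chac1 and Sesn2 are targets of ATF4, Chac1 breaking down glutathione and Sesn2 holding back mTORC1. Chac1 had 25, 16 and 6 counts in foamy and 0, 0 and 1 counts in non-foamy libraries, too few for the filter of the edgeR test. Its pooled ratio was 50.7 (95% interval 8.66 to 2042.8, counting error only), at a pooled 0.817 against 0.0161 CPM with TMM factors. DESeq2, which tests it, gave a log2 fold change of 5.53 (SE 1.75, adjusted p = 0.021), and edgeR without the filter gave 5.32 (SE 2.04, adjusted p = 0.16). Thus the call depends on the tool, and the level is low in every library.

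Sesn2 read 2.56, 1.95 and 3.83 CPM in the foamy libraries and 0.542, 0.165 and 1.06 CPM in the non-foamy ones. These groups did not overlap either, and the pooled 160 against 40 counts gave a ratio of 4.31 (95% interval 3.03 to 6.26, counting error only). The difference did not pass in edgeR (log2 fold change 2.21 with SE 0.98, adjusted p = 0.25), and did in DESeq2 (2.23, SE 0.79, adjusted p = 0.047). Asns, for asparagine synthetase, ran from 7.02 to 16.9 CPM in the foamy libraries and from 11.0 to 29.8 CPM in the non-foamy ones, with overlap. Trib3, a pseudokinase induced with CHOP, was at or under 1.23 CPM in every library. So the 4 members with a C/EBP-ATF core in the promoter did not share a direction: Chac1 had more counts in foamy libraries, Trib3 (0.13) and Asns (-0.67) did not pass, and Herpud1 was lower.

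In the ATF6 or chaperone branch, 1 of 14 members was higher and 0 were lower (7.14%, against 5.41% called of all genes). The median log2 fold change was 0.24 (-0.04 with total counts only, where the median of all genes was -0.31). Atf6, the sensor, read 43.8, 40.5 and 63.0 CPM in the foamy libraries and 89.0, 35.7 and 56.8 CPM in the non-foamy ones. The highest and the lowest value were both non-foamy, so the groups overlapped fully (log2 fold change -0.30 with SE 0.33, edgeR adjusted p = 0.71).

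Hspa5 encodes BiP, the main ER chaperone of the Hsp70 family, which also holds the sensors inactive. It read 715, 597 and 583 CPM in the foamy libraries and 975, 862 and 627 CPM in the non-foamy ones. Most non-foamy values were above the foamy ones, but non-foamy replicate 3 lay within the foamy range. The log2 fold change was -0.38 (SE 0.20, edgeR adjusted p = 0.35).

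Calr (ENSMUSG00000003814) lies on chromosome 8 from 84841850 to 84846934 and encodes calreticulin, which holds newly made glycoproteins and stores calcium. It read 529, 619.5 and 644 CPM in the foamy libraries and 331, 376 and 375 CPM in the non-foamy ones. All foamy values stood above all non-foamy values. In RPKM, scaled to total counts, they stayed apart, at 159 to 208 in foamy and 134 to 141 in non-foamy libraries. That gap was smaller than the spread of the foamy values. Calr rose from 361 ± 26.1 CPM in non-foamy to 597 ± 60.5 CPM in foamy libraries (SD, n = 3), 1.66-fold (log2 fold change 0.73 with SE 0.17, edgeR adjusted p = 0.029). The call was lost with total counts only (0.46, adjusted p = 0.13), when foamy replicate 1 (0.82), 2 (0.71) or 3 (0.68) was left out, and when non-foamy replicate 2 (0.76) or 3 (0.77) was. It was also lost with the replicate numbers as a block (0.73). GENCODE M21 lists a processed pseudogene Calr-ps, and how reads that map to both were counted is not given in the sources used here. In RPKM, Calr was 90.2, 127 and 135% of Hspa5 in foamy and 41.3, 53.3 and 72.9% in non-foamy libraries, so the ratio was higher in every foamy than in every non-foamy library.

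Canx, the membrane-bound partner of calreticulin, read 905, 1140.4 and 1006 CPM in the foamy libraries and 902, 905 and 808 CPM in the non-foamy ones. The groups were apart by a hair, since the lowest foamy value (904.9) and the highest non-foamy value (904.6) nearly met. The log2 fold change was 0.22 (SE 0.17, edgeR adjusted p = 0.54) and -0.046 with total counts only, where the groups overlapped.

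Hsp90b1 encodes GRP94, the Hsp90 of the ER, on which integrins and Toll-like receptors depend for folding. Its level was 682, 637 and 687 CPM in the foamy libraries and 482, 529.7 and 456 CPM in the non-foamy ones. The groups did not overlap, yet the difference did not pass (log2 fold change 0.45 with SE 0.16, edgeR adjusted p = 0.14). Hsp90b1 shares 415 exon bases with the pseudogene 1810014B01Rik on the opposite strand, which had a mean of 22 counts in foamy and 16.3 counts in non-foamy libraries.

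P4hb encodes protein disulfide isomerase, which forms and reshuffles disulfide bonds. It read 242, 261 and 255 CPM in the foamy libraries and 195, 202 and 187 CPM in the non-foamy ones. Here too the groups were apart with TMM factors and the difference did not pass (log2 fold change 0.38 with SE 0.16, edgeR adjusted p = 0.24). Dnajb11, a co-chaperone of BiP, read 48.5, 52.8 and 50.1 CPM in the foamy libraries and 37.8, 39.5 and 46.4 CPM in the non-foamy ones. It was apart as well, with a log2 fold change of 0.29 (SE 0.22, edgeR adjusted p = 0.56).

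The other 7 members of the branch overlapped between the groups and did not pass. They were the isomerases Pdia3 (log2 fold change -0.002), Pdia4 (0.25) and Pdia6 (0.38), the BiP exchange factor Hyou1 (0.46), and the ER stress-induced Creld2 (-0.67), Manf (-0.17) and Sdf2l1 (0.15). Pdia3 had the widest spread of the abundant members, from 629.99 to 1512.7 CPM in the foamy libraries and from 596 to 1301 CPM in the non-foamy ones. Manf shares 146 exon bases with Dcaf1 on the opposite strand.

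Chaperone-rich secretory cells were looked for, as their RNA would carry these genes. Of the plasma cell markers Jchain was at or under 0.325 CPM, Mzb1 at or under 0.0542 CPM and Igkc at or under 0.551 CPM in every library. Of the 7 plasma cell genes 3 were tested. Sdc1, which macrophages can also express, was higher in foamy libraries (15.2 to 16.7 against 3.11 to 4.17 CPM), and Ighm was lower (75.9 to 111 against 555 to 678 CPM). Prdm1, the third, overlapped between the groups. The list summed to 101 to 129.998 CPM in the foamy libraries and 573 to 695 CPM in the non-foamy ones. Ighm made most of this sum in every library, so the sum reads chiefly that 1 gene.

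**Figure D3:**
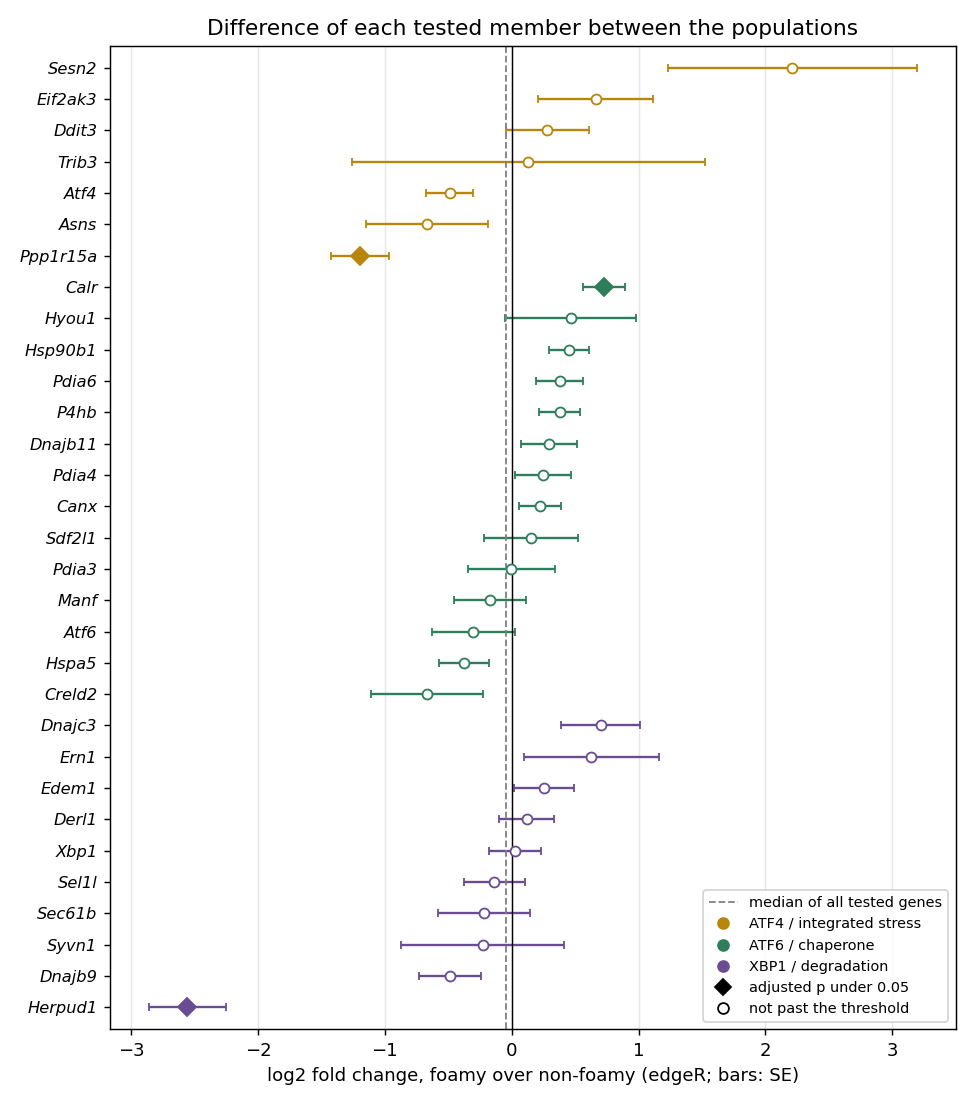
Log2 fold change, foamy over non-foamy, of the 31 tested members with the SE from edgeR, by branch, filled diamonds passing an adjusted p of 0.05. Ppp1r15a (-1.20) and Herpud1 (-2.56) lie below 0 and Calr (0.73) above, and the low-count genes Sesn2 and Trib3 have the widest SE.

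In the XBP1 or degradation branch, 0 of 10 members were higher and 1, Herpud1, was lower (10%, against 5.41% called of all genes). The median log2 fold change was -0.06 (-0.32 with total counts only). With 1 library left out it ran from -0.11 without foamy replicate 2 to 0.078 without non-foamy replicate 3, so its sign is not settled either. Ern1 encodes IRE1alpha, the kinase and nuclease that splices Xbp1. It read 5.79, 10.6 and 6.79 CPM in the foamy libraries and 2.76, 5.61 and 6.61 CPM in the non-foamy ones. The groups overlapped, and the difference did not pass (log2 fold change 0.63 with SE 0.54, edgeR adjusted p = 0.61).

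Xbp1 encodes the factor that IRE1 makes active by removing 26 bases from its mRNA, which shifts the reading frame. Those bases are in capitals in the stretch below, found in all 3 protein-coding transcripts of GENCODE M21 (bases 815 to 840 of Xbp1-201), with 12 flanking bases on each side.
Xbp1: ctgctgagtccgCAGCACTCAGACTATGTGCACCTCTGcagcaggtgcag
Gene counts add spliced and unspliced Xbp1 together, so they do not measure this step, and 0 of the 4 annotated transcripts carry the joined flanks. The summed level was 78.9, 84.1 and 66.0 CPM in the foamy libraries and 67.2, 81.0 and 77.0 CPM in the non-foamy ones. The groups overlapped throughout (log2 fold change 0.02 with SE 0.20, edgeR adjusted p = 0.97), and the value was -0.24 with total counts only.

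Herpud1 encodes Herp, a short-lived membrane protein that helps gather the HRD1 ubiquitin ligase complex. The gene (ENSMUSG00000031770) lies on chromosome 8 from 94386438 to 94395377. It read 66.3, 42.0 and 25.9 CPM in the foamy libraries and 296, 245 and 249 CPM in the non-foamy ones. The lowest non-foamy value was several times the highest foamy value, and the foamy libraries varied more among themselves. Herpud1 fell from 263 ± 28.5 CPM in non-foamy to 44.7 ± 20.3 CPM in foamy libraries (SD, n = 3), 5.88-fold (log2 fold change -2.56 with SE 0.31, edgeR adjusted p = 0.00074). It was called under all 14 alternatives, from -2.95 to -2.27 with each library left out in turn. In RPKM it was 13.95, 10.6 and 6.69% of Hspa5 in foamy and 45.7, 42.7 and 59.7% in non-foamy libraries. This ratio, taken within each library and moved by no scaling factor, was lower in every foamy than in every non-foamy library. It was picked after its values were seen and is no further test of the lower Herpud1 level. The Herpud1 level moved with lower monocyte markers (6 of 7 called), immediate early genes (12 of 15 called) and Cd209a (not called), whose part was not tested.

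Dnajb9 encodes ERdj4, a co-chaperone of BiP that XBP1 induces. It read 27.4, 24.6 and 27.8 CPM in the foamy libraries and 38.9, 40.6 and 32.3 CPM in the non-foamy ones. The foamy values were all lower, without passing (log2 fold change -0.49 with SE 0.25, edgeR adjusted p = 0.33). Dnajc3 encodes p58IPK, a co-chaperone first known as an inhibitor of eIF2alpha kinases. It read 53.5, 72.4 and 59.7 CPM in the foamy libraries and 21.3, 41.9 and 50.9 CPM in the non-foamy ones. The foamy values were all higher, without passing (log2 fold change 0.70 with SE 0.31, edgeR adjusted p = 0.26), so the estimates for these co-chaperones of BiP had opposite signs. In RPKM, scaled to total counts, the Dnajc3 groups overlapped, with foamy replicate 1 (8.95) below non-foamy replicate 3 (10.1).

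The remaining 5 members overlapped between the groups and did not pass. They were Syvn1, the HRD1 ubiquitin ligase itself (log2 fold change -0.23), its adaptor Sel1l (-0.14), the channel protein Derl1 (0.12), the mannosidase-like Edem1 (0.26) and the translocon subunit Sec61b (-0.22). Syvn1 was the rarest of them, from 3.18 to 3.84 CPM in the foamy libraries and from 1.84 to 5.39 CPM in the non-foamy ones. It shares 83 exon bases with Mrpl49 on the opposite strand, which had a mean of 917 counts in foamy and 870 in non-foamy libraries. Syvn1 itself had 34 to 137 counts per library, so its value is uncertain to that extent. Hence of the HRD1 complex genes among the members only Herpud1 passed, and the difference between Herpud1 and its partners was not tested.

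The 8 members with an ERSE match had log2 fold changes from -0.67 (Creld2) to 0.73 (Calr), 5 positive (Canx not with total counts only) and 3 negative, with 1 called. Of the ERSE-II members Herpud1 was called at -2.56 and Dnajb11, at 0.29, did not pass, and their difference was not tested. The values of members with the same printed element thus lay on both sides of 0.

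**Figure D4:**
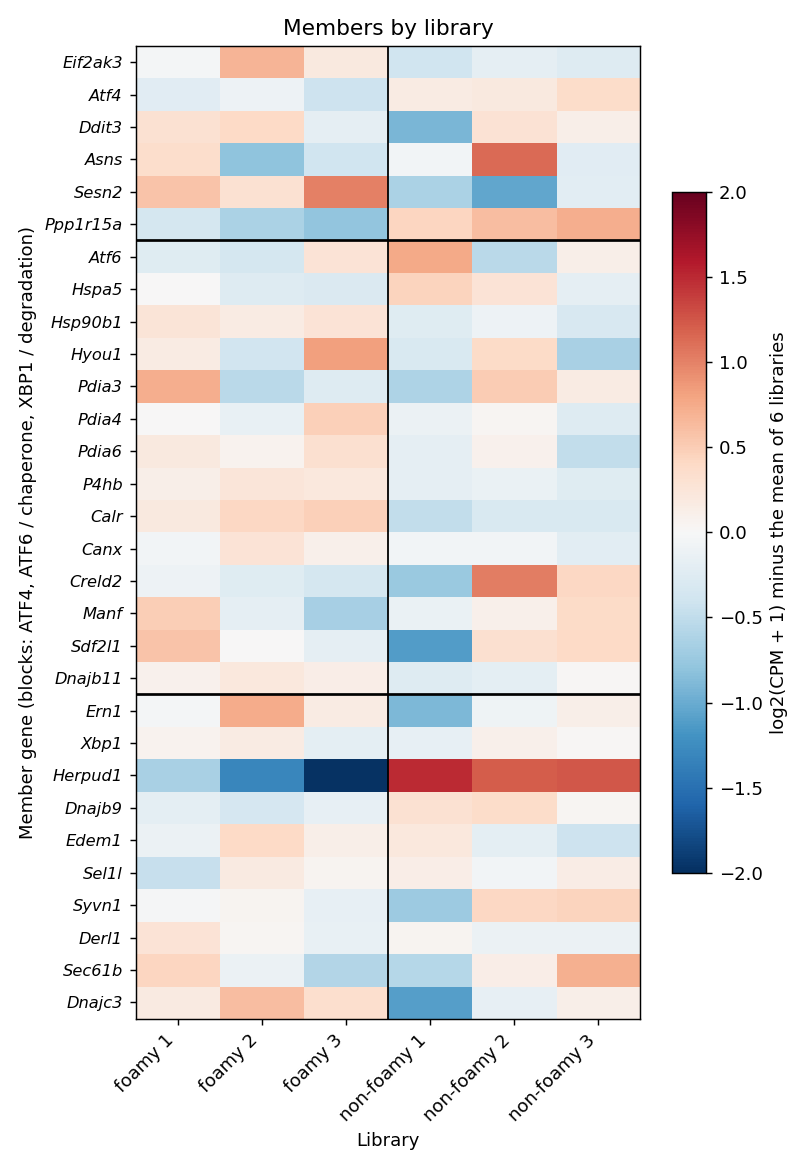
log2(CPM + 1) of 30 members in each library minus the gene's mean over the 6 libraries, leaving out Trib3 and Chac1, which have libraries at 0. Herpud1 and Ppp1r15a are blue in all foamy libraries, while Ddit3, Sdf2l1, Creld2, Syvn1 and Dnajc3 are lowest in non-foamy replicate 1.

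Within groups, the median coefficient of variation of the tested members was 17.7% in foamy and 20.03% in non-foamy libraries, against 26.9% and 34.6% over all tested genes. Of the members, 10 averaged at least 100 CPM and 7 under 10 CPM, and the part of level in this was not tested. Non-foamy replicate 1, the shallowest library, was the lowest of its group in 15 of 31 members (48.4%) and in 35.6% of all genes. Non-foamy replicate 2 was the highest of its group in 14 (45.2%), against 29.6% of all genes.

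A list of 111 other genes of these pathways was counted in the same fit. Of 101 tested, 1 was higher and 4 were lower, so 4.95% were called, near the 5.41% of all genes. The median log2 fold change was 0.19 (-0.095 with total counts only). The ATF4 partners and targets held 3 of the lower genes among 20 tested (15%), at a median of -0.31. Slc7a11, the cystine importer, was at 9.82 ± 1.83 CPM in the foamy libraries and 34.02 ± 16.1 CPM in the non-foamy ones (log2 fold change -1.79 with SE 0.41, edgeR adjusted p = 0.028). Cebpb, an ATF4 partner, was at 23.7 ± 9.20 against 54.1 ± 7.68 CPM (-1.19, SE 0.30, adjusted p = 0.046), and Atf3, itself on the immediate early list, at 397 ± 31.0 against 648 ± 42.5 CPM (-0.71, SE 0.16, adjusted p = 0.029). Ube2j1, the ubiquitin-conjugating enzyme of ER-associated degradation, was the fourth, at 53.6 ± 7.35 against 99.2 ± 11.3 CPM (-0.89, SE 0.21, adjusted p = 0.033). Sdf2, a paralog of the member Sdf2l1, was the higher one, at 141 ± 11.4 against 85.4 ± 7.08 CPM (0.72, SE 0.19, adjusted p = 0.047).

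These 5 calls were near the threshold. Sdf2 was lost without any of the 6 libraries and with total counts only (0.46). Slc7a11 stayed called only without non-foamy replicate 3 (-2.13), Cebpb only without foamy replicate 2 (-1.54), and Atf3 (-0.76) and Ube2j1 (-0.98) only without non-foamy replicate 1. Of these genes, 0 were lower without foamy replicate 1 or 3, 1 without foamy replicate 2, and 2, 0 and 1 when non-foamy replicates 1 to 3 were left out, and the number of higher genes was 0 in each.

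In the other lists no gene passed. Of 11 eIF2alpha kinase, eIF2B and phosphatase genes, 9 had positive values (4 with total counts only), the lowest p being those of the eIF2B subunits Eif2b5 (log2 fold change 0.73, edgeR adjusted p = 0.31) and Eif2b1 (0.35, 0.44). Of 6 genes of ATF6 processing and related factors, Creb3 (0.45, adjusted p = 0.16) and Atf6b (-0.64, 0.52) came first. Of 5 IRE1 partners and decay substrates, Rtcb, the ligase that joins the cut Xbp1 mRNA, was at 0.36 (adjusted p = 0.35) and Map3k5, the kinase ASK1, at -1.10 (0.39).

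The 22 genes of the translocon, signal peptidase and glycosylation had 0 calls and mostly positive values. Of them 21 had a positive log2 fold change, with a median of 0.33, and in 7 the foamy values were all above the non-foamy values and in 0 all below. Over all genes tested, 5336 of 11303 were positive (3530 with total counts only), and 12.4% had all foamy values above. With total counts only, 16 were positive at a median of 0.07. Relative to the median of all genes that is 0.38 with either scaling. Srprb, a subunit of the signal recognition particle receptor, was at 29.8 ± 2.41 CPM in the foamy libraries and 16.8 ± 5.03 CPM in the non-foamy ones (0.83, SE 0.30, edgeR adjusted p = 0.16). Rpn2, of the oligosaccharyl transferase, was at 316 ± 42.4 against 220.5 ± 39.0 CPM (0.52, SE 0.20, adjusted p = 0.17).

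Chaperones outside the ER were counted as well. Of 13 cytosolic and mitochondrial chaperone genes tested, 0 were higher and 3 were lower (23.1%, against 5.41% called of all genes). The median was -0.38. Scaled to total counts, 4 were lower at a median of -0.66, and with 1 library left out the median ran from -0.57 without foamy replicate 3 to -0.15 without foamy replicate 1 and -0.13 without non-foamy replicate 1. Hspa1a, an inducible cytosolic Hsp70, read 8.12, 7.58 and 4.37 CPM in the foamy libraries and 56.2, 54.3 and 67.6 CPM in the non-foamy ones. Its groups lay far apart (log2 fold change -3.15 with SE 0.31, edgeR adjusted p = 0.00021). The near-identical copy Hspa1b was lower too (-3.46, SE 0.37, adjusted p = 0.00033), and counts of these copies are uncertain where reads fit both. Dnajb1, their Hsp40 partner, was lower (-2.21, SE 0.39, adjusted p = 0.0073), though not without foamy replicate 2 (-2.08, adjusted p = 0.055) or foamy replicate 3 (-2.16, adjusted p = 0.050). These heat shock genes moved with the immediate early genes given above, whose part was not tested.

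**Figure D5:**
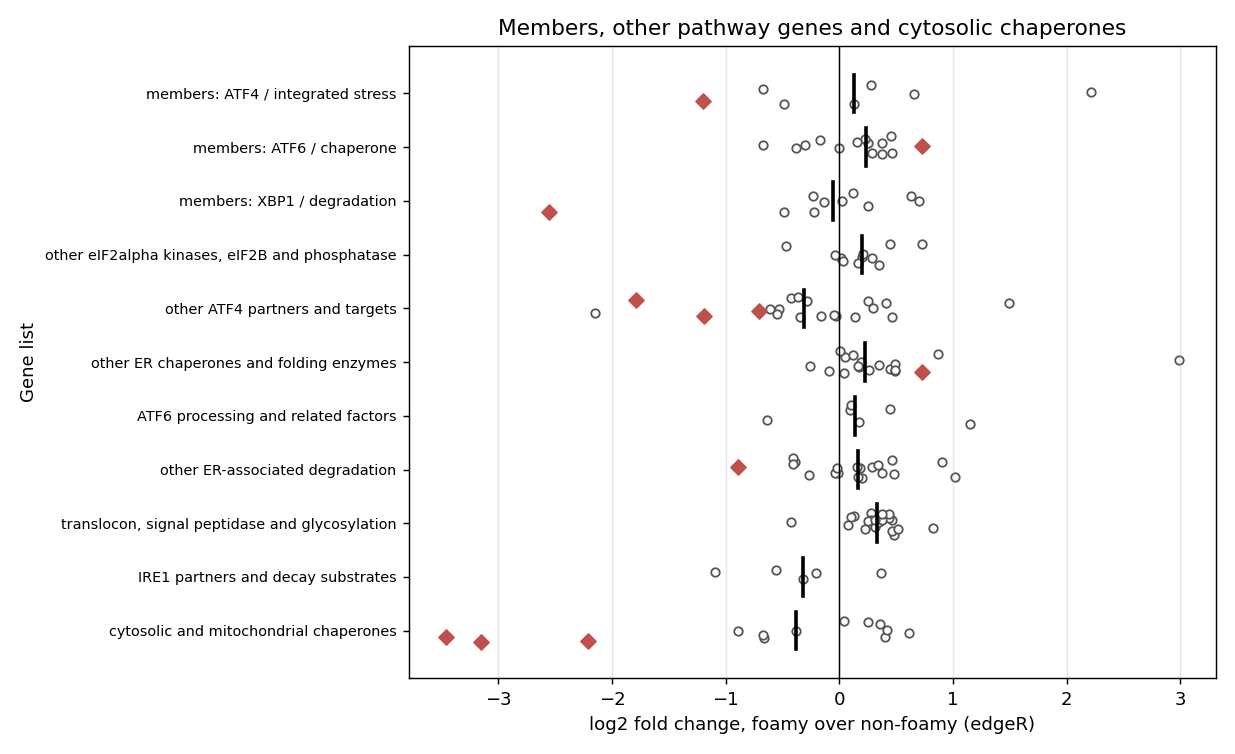
Log2 fold change, foamy over non-foamy, of each tested gene (points; red diamonds pass an adjusted p of 0.05) and the median (bar) of the 3 member branches, 7 lists of other pathway genes and the chaperones outside the ER. The translocon list lies almost wholly above 0 with no call, and the heat shock genes Hspa1a, Hspa1b and Dnajb1 stand far below it.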

How the data were processed

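The authors deposited a table per library with counts, CPM and RPKM of 41388 genes. Per the submitters' processing notes, STAR 2.0.4b, Subread, featureCounts 1.4.5 and GRCm38 were used. The strand setting of the counting and its handling of multi-mapped reads: not given in the sources used here. Per the labels, SMARTer cDNA was read as single reads of 50 bases, and no molecular identifiers are named, so intervals cover counting error only. The deposited counts are whole reads per gene. The deposited CPM equal counts scaled to a fixed total of counts in genes, and the deposited RPKM equal CPM per kilobase, both checked to 1e-06.

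Counts were tested with edgeR 4.0.16 in R 4.3.3 (filterByExpr, TMM factors of 0.868 to 1.186, robust quasi-likelihood F-test, no covariate), adjusted by Benjamini-Hochberg over 11303 genes at 0.05. Each SE is the absolute log2 value over the root of F. The labels do not say that replicates are separate animals, so p-values reflect only how far these libraries spread, which may be technical. No library pair agreed within sampling noise. RPKM means are of the deposited values. Alternatives were RLE factors, total counts only, DESeq2 1.42.0, limma 3.58.1 voom, no filter, at least 10 counts in 3 libraries with a mean of 5 CPM, no mitochondrial and ribosomal protein genes, a replicate block, and each library left out. The procedure was tested on simulated data.

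The members, lists and naming rule were chosen with earlier results of these data known. All members are accounted for. Those called, those whose groups do not overlap, the sensors, Atf4, Xbp1, Ddit3 and Hspa5 are given by library; of other lists, up to 4 called genes by p in each direction, or 2 where none was called. Ppp1r15b, Sdc1 and Ighm and the ratios between members were picked after their values were seen.

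Sequences are from RefSeq (GRCm38.p6) and, for Xbp1, GENCODE M21. Of the members, 25 had identical ends in M21 and in the deposited tables, whose coordinates are given for genes.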

Additional observations from a re-analysis of the deposited data

How the results depend on the processing

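The members called were 1 higher and 2 lower with RLE factors, limma-voom, the stricter filter, no filter, and without mitochondrial and ribosomal protein genes. DESeq2 called 3 higher and 2 lower members, and total counts only 0 higher and 3 lower. With each library left out in turn, 0 to 1 members were higher and 1 to 2 lower. Over all genes (283 higher, 328 lower) the numbers were 165 and 614 with total counts only, 592 and 827 with DESeq2, 457 higher without a filter, and 113 to 285 higher and 158 to 294 lower with 1 library left out. The other pathway genes gave 0 higher with total counts only, 2 higher with DESeq2, 2 higher and 2 lower without a filter, and 0 higher and 0 to 2 lower with 1 library left out. Whether same-numbered libraries share animals is not given. Their deviations correlated at -0.12, -0.03 and -0.05, and those of differently numbered libraries at -0.055 to 0.096. With 3 libraries per group such values cannot decide it. With the replicate block, 159 genes were higher and 232 lower, 0 members higher and 2 lower (Calr at 0.73, adjusted p = 0.11), and 0 other pathway genes in either direction.

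Directions that changed belong to members that did not pass. With total counts only, the log2 fold change was -0.16 for Trib3, -0.030 for Pdia4, -0.046 for Canx, -0.095 for Sdf2l1, -0.24 for Xbp1, -0.021 for Edem1 and -0.16 for Derl1. Pdia3 was 0.010 with DESeq2 and 0.083 without a filter. With 1 library left out, the ranges that crossed 0 were -0.014 to 0.52 for Ddit3, -0.67 to 1.00 for Trib3, -0.57 to 0.081 for Atf6, -0.47 to 0.27 for Pdia3, -0.54 to 0.073 for Manf, -0.20 to 0.41 for Sdf2l1, -0.052 to 0.13 for Xbp1, -0.26 to 0.041 for Sel1l, -0.59 to 0.014 for Syvn1 and -0.52 to 0.16 for Sec61b. The causes were not tested. Depth limits Chac1, whose counting interval spans 8.66 to 2042.8, and Trib3, with 37 against 33 counts and an interval of 0.735 to 1.99.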

Other observations

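The motif matches were also counted over all genes of the RefSeq table with a promoter window. Of 37 genes with an ERSE match 13 were tested, with 1 higher and 0 lower in foamy libraries, and 8 of these 13 are members. Of 333 tested genes with the cyclic AMP response element TGACGTCA, 3 were higher and 17 lower, and of 246 with the C/EBP-ATF core TGATGNAA, 9 were higher and 19 lower. Over all genes 2.50% were higher and 2.90% lower. These counts are a description with no test.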
